A study of Homo sapiens with 91 samples.

Results

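The mRNA 3′ end processing and Integrator genes are 39 protein-coding genes that were taken by symbol from the 62710 human genes in the count tables. They cover the cleavage and polyadenylation specificity factor (CPSF, 7 genes), the cleavage stimulation factor (CstF, 4 genes), cleavage factors I (3 genes) and II (2 genes), poly(A) addition (3 genes), the exonuclease XRN2, Integrator subunits INTS1 to INTS14, and 5 genes of histone mRNA processing. Each symbol matched 1 Ensembl identifier, and 38 of the 39 passed the filter on low counts in each cell line. LSM11 did not pass in any line.

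The study followed RNA in 3 human cancer cell lines after CDK9, the kinase that releases paused RNA polymerase II, was degraded with KI-CDK9d-32 or inhibited with KB-0742. MOLT4 is an acute lymphoblastic leukemia line of T-cell origin, PSN1 a pancreatic carcinoma line and RH4 a rhabdomyosarcoma line. The labels name RH4, while the series' design text names RH1, and the labels' name is used here. MOLT4 had KI-CDK9d-32, KB-0742 and vehicle groups at 2, 4 and 8 h. PSN1 had the same groups except KB-0742 at 2 h. RH4 had all 3 treatments at 4 and 8 h. Vehicle was DMSO, every group held 4 libraries except MOLT4 vehicle at 4 h with 3, and the labels give no doses, so both compounds are compared at matched times and not at known matched doses. The labels call the replicates biological and name no separate cultures. The p-values then reflect only how far these libraries spread.

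The 91 libraries were made by SMART-seq2, which amplifies full-length cDNA of polyadenylated RNA and does not keep strand. Their gene counts were 1598283 to 3240753 in MOLT4, 1998712 to 3227113 in PSN1 and 1670111 to 3136769 in RH4. Each line's own marker list was the highest of 3 lists in all of its libraries: 35 of 35 for the T-lineage list in MOLT4, 32 of 32 for the epithelial list in PSN1 and 24 of 24 for the myogenic list in RH4. CDH1, a defining epithelial gene, was under 1 TPM in PSN1, as were NOTCH3 of the T-lineage list in MOLT4 and MYF5 of the myogenic list in RH4. Synthetic spike-in RNA, added in equal amount to each lysate, took on average 39.9% ± 14.8 of counts in KI-CDK9d-32 libraries and 21.5% ± 2.59 with KB-0742 at 8 h in MOLT4, against 14.5% ± 1.91 with vehicle (SD, n = 4 each). The order was the same in PSN1 (17.3% with KI-CDK9d-32, 17.1% with KB-0742 and 12.6% with vehicle), and in RH4 KB-0742 had the highest share (12.9% with KI-CDK9d-32, 15.1% with KB-0742 and 9.71% with vehicle). Fewer cells and less RNA per cell cannot be told apart in such bulk samples. Fold changes below are on the TMM scale, relative to the bulk of the other genes in a library, with the spike-in scale given where it changes a direction.

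Most human mRNAs receive their 3′ end when CPSF recognises the poly(A) signal and cuts the transcript with its endonuclease CPSF3, helped by CstF at the downstream GU-rich element and by cleavage factors I and II. Poly(A) polymerase then adds the tail, and XRN2 digests the RNA still attached to the polymerase, which ends transcription. Integrator is a separate cleavage complex that cuts nascent RNA of snRNA genes and of polymerases paused near promoters, and recruits the phosphatase PP2A, which opposes CDK9. Histone mRNAs end in a stem-loop instead of a tail, cut with help of SLBP and the U7 snRNP.

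Promoters of 3 members are shown as examples, chosen after their values were seen, namely INTS6 and CLP1, which fell early with KI-CDK9d-32 in MOLT4, and WDR33, which rose with KB-0742 relative to other genes. Each line gives, 5′ to 3′ on the gene's strand, the 250 bases before the RefSeq start site (build GRCh38.p14), with any CACGTG in capitals, the E-box that MYC and MAX bind. The INTS6 window lies at chr13:51453037-51453286 on the minus strand, the CLP1 window at chr11:57657512-57657761 on the plus strand and the WDR33 window at chr2:127811172-127811421 on the minus strand. In the GENCODE 29 annotation the INTS6 and CLP1 windows fall within the span of the gene.
INTS6: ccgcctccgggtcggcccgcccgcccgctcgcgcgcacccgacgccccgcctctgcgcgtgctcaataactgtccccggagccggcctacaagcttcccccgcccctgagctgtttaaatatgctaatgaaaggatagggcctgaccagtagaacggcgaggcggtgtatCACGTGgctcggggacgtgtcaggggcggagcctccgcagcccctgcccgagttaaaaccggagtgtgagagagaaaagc
CLP1: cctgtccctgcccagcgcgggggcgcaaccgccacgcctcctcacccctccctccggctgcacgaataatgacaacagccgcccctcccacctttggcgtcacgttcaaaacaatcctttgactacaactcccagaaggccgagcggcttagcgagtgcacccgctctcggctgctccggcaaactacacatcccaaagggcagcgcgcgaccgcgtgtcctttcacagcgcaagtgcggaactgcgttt
WDR33: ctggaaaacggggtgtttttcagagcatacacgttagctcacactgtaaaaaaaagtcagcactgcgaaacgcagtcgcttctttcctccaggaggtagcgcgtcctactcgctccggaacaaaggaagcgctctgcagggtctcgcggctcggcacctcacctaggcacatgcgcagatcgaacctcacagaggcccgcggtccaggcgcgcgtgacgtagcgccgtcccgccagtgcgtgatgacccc

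CACGTG, which reads the same on both strands, was present once in the INTS6 window, with its first base 80 bases before the start site, and not in the other two. Of the 39 members, 34 matched 40 windows, and 4 of these held the motif (10%), those of INTS6 and RBBP6 and both of XRN2, which overlap and hold the same motif. Over all genes it stood in 6.34% of 35116 windows. By gene, 3 of the 34 members held it (8.82%), beside 7.73% of 27305 genes.

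In vehicle, levels per transcript length differed widely between members of the same complex. LSM10, a U7 snRNP protein, had the highest median of the members in every line. It was 68.9 (62.9 to 109.6) TPM (range over 11 vehicle libraries) in MOLT4, 147 (111 to 184) TPM in PSN1 (12 libraries) and 90.4 (65.6 to 103) TPM in RH4 (8 libraries). Its U7 partner LSM11 was the lowest, at 0.162 (0 to 0.467), 0.281 (0.171 to 0.649) and 0.203 (0.0465 to 0.577) TPM in the same order of lines. INTS11, the Integrator endonuclease, was the highest Integrator subunit, at 35.4 (32.1 to 45), 24 (15.1 to 27.7) and 53.1 (46.1 to 71) TPM. INTS6, which tethers the phosphatase, was the lowest of the 14, at 0.898 (0.364 to 2.12), 0.699 (0.431 to 1.35) and 0.775 (0.266 to 1.3) TPM. PCF11, the cleavage factor II subunit that binds the polymerase's C-terminal domain, was also low, at 0.981 (0.373 to 1.92), 1.27 (0.645 to 2.29) and 1.15 (0.871 to 2.25) TPM. The ranges of INTS6 and PCF11 overlapped in every line, so their order is within the spread of the libraries. The same holds for LSM10 and PABPN1 in RH4, where PABPN1, at 87.6 (71.4 to 97.6) TPM, lay inside the LSM10 range.

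At 8 h of KI-CDK9d-32 in MOLT4, 7 of 38 members were higher and 14 lower than in vehicle, where the background was 20.8% up and 28.7% down, or 49.6% in all. A gene is called at an adjusted p under 0.05 by edgeR's quasi-likelihood test, with Benjamini-Hochberg adjustment over all 11664 genes tested, and the background is the share of all these genes that was called. In PSN1 3 members rose and 4 fell, with a background of 11% up and 9.61% down. In RH4 2 rose and 4 fell, with a background of 9.19% up and 6.05% down. KB-0742 at 8 h raised 11 members and lowered 13 in MOLT4 (background 23.4% up and 25.8% down). In PSN1 it raised 6 and lowered 8 (15.1% up and 15.1% down, or 30.2% in all). In RH4 it raised 5 and lowered 13 (22.5% up and 22.9% down). When each library was left out in turn, 17 of the KI-CDK9d-32 calls held throughout in MOLT4, 6 in PSN1 and 3 in RH4. Of the KB-0742 calls 17, 10 and 15 held.

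The split between higher and lower calls depended on the scale. Scaled to the spike-ins, no member was higher at 8 h with either compound, and 38, 28 and 24 were lower with KI-CDK9d-32 in MOLT4, PSN1 and RH4. With KB-0742 24, 24 and 33 were lower. On that scale the median of all genes tested was itself shifted, to -2.99, -1.01 and -0.92 (log2) with KI-CDK9d-32, and to -1.41, -0.94 and -1.66 with KB-0742. A member called higher on the TMM scale is therefore higher relative to other genes of the library. Exons of 21 of the 39 members overlap those of another gene in GENCODE 29, and unstranded counts cannot assign such reads by strand. These are CPSF1, CPSF4, CPSF6, CPSF7, FIP1L1, SYMPK, WDR33, CLP1, PCF11, CSTF3, PABPN1, PAPOLA, XRN2, NPAT and the Integrator genes INTS3, INTS4, INTS5, INTS6, INTS8, INTS11 and INTS12.

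Earlier, KI-CDK9d-32 in MOLT4 gave 1 higher and 5 lower at 2 h (background 4.57% up and 5.41% down; 0 higher and 3 lower on the spike-in scale) and 4 higher and 11 lower at 4 h (13.6% up and 18.9% down; 0 higher and 20 lower). KB-0742 in MOLT4 gave 4 higher and 10 lower at 2 h (13.2% up and 12.9% down; 0 higher and 10 lower) and 5 higher and 15 lower at 4 h (18.1% up and 17.7% down; 0 higher and 25 lower). The 2 h KB-0742 count was 9 in all without KB-0742 replicate 2, against 14. In KB-0742 replicate 3 at 4 h the spike-ins took 49.4% of counts, and 16.3% to 20.9% in the other 3. Without it the spike-in scale gave 0 higher and 18 lower at 4 h. In PSN1, KI-CDK9d-32 gave 1 higher and 2 lower at 4 h (3.62% up and 3.74% down; 0 higher and 8 lower), a total that was 1 in place of 3 without vehicle replicate 1 or 3 or KI-CDK9d-32 replicate 3 or 4. KB-0742 gave 2 higher and 8 lower (11.3% up and 12.6% down; 0 higher and 24 lower). In RH4 at 4 h, KI-CDK9d-32 gave 1 higher and 1 lower (3.47% up and 1.89% down; 0 higher and 1 lower), or 1 call without KI-CDK9d-32 replicate 4, and KB-0742 3 higher and 13 lower (15.4% up and 16.3% down; 0 higher and 33 lower). No member was called with KI-CDK9d-32 at 2 h in PSN1 by edgeR (background 0.481%), where 4 of 38 had an unadjusted p under 0.05 and DESeq2 called 1. Leaving out KI-CDK9d-32 replicate 2 gave 1 call by edgeR.

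**Figure D1:**
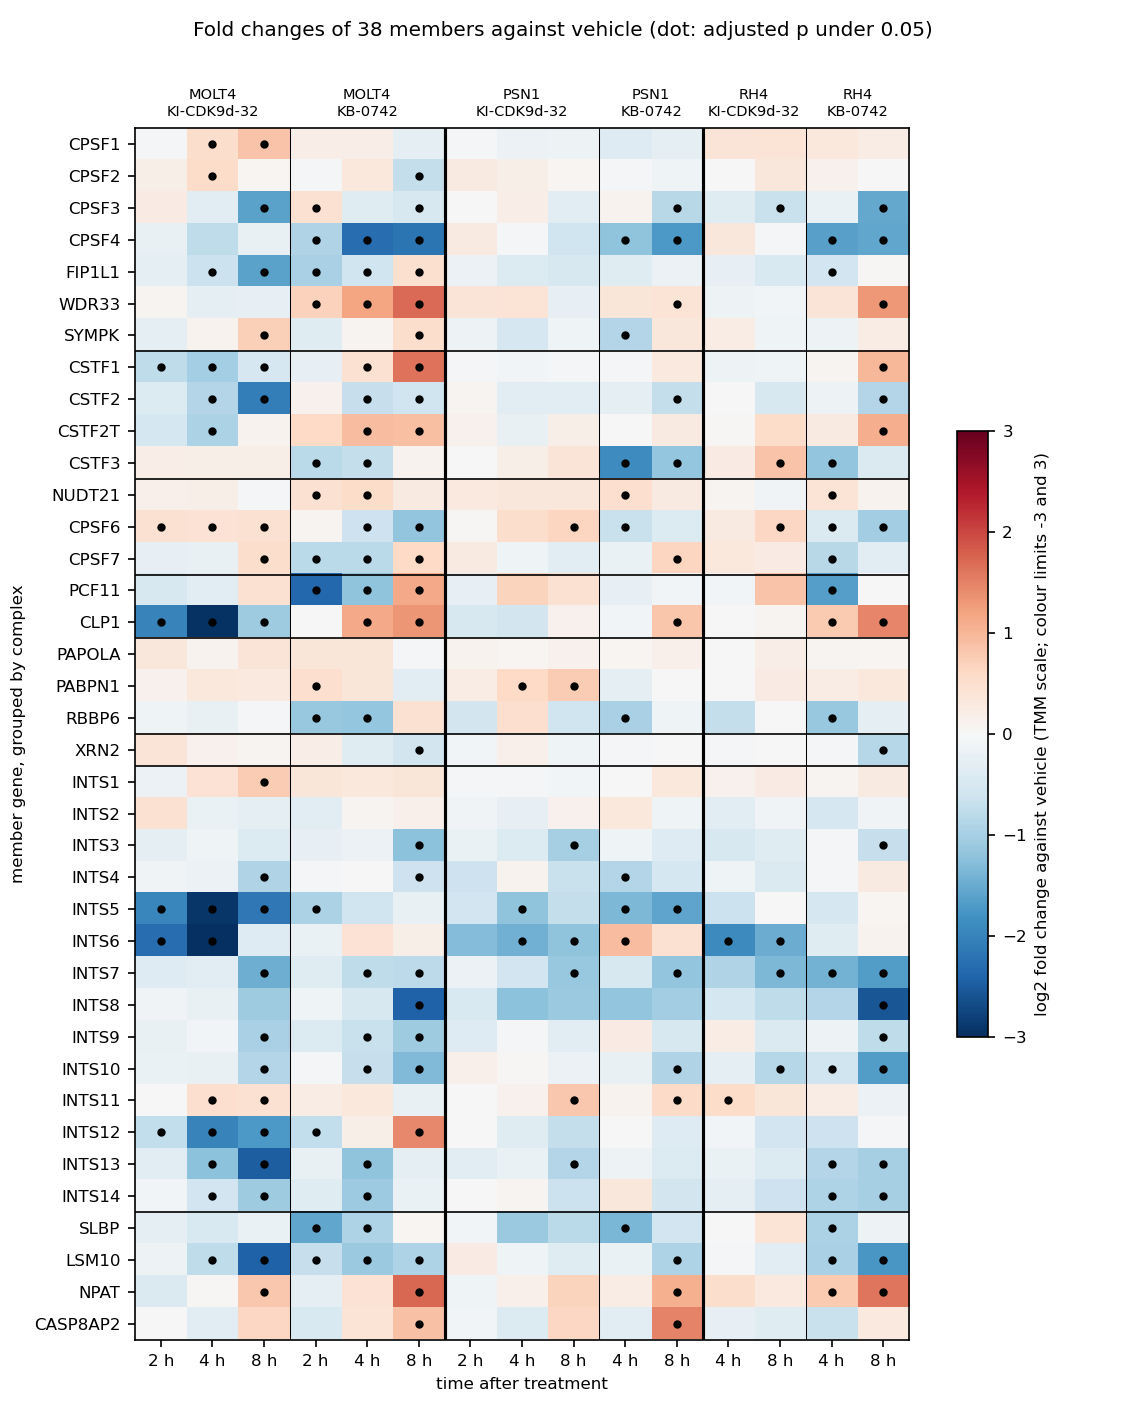
Log2 fold change against vehicle (colour, TMM scale) of the 38 members that passed the filter (rows, grouped by complex, with lines between complexes), by cell line, compound and time after treatment in h (columns). Black dots mark adjusted p under 0.05: INTS6, INTS5 and CLP1 are the deepest blue fields with KI-CDK9d-32 in MOLT4 at 2 and 4 h, and CPSF4 is blue with KB-0742 in all 3 lines.

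CPSF4, a zinc-finger subunit that contacts the poly(A) signal, fell with KB-0742 in every line and was not called with KI-CDK9d-32. At 8 h in MOLT4, CPSF4 had 4.07, 1.05, 4.5 and 4.18 CPM in the 4 KB-0742 libraries, against 15, 12.5, 16.2 and 21.7 CPM in the 4 vehicle libraries. All 4 KB-0742 libraries lay below all vehicle libraries (log2 fold change -2.20 ± 0.34 (SE), adjusted p = 5.45e-07, edgeR). The KI-CDK9d-32 libraries had 16.4, 11, 9.22 and 18.7 CPM and overlapped vehicle (-0.22 ± 0.30 (SE), adjusted p = 0.581).

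In PSN1, CPSF4 had 4.31, 4.52, 2.58 and 2.09 CPM in the 4 KB-0742 libraries, against 5.75, 16.1, 8.87 and 14.9 CPM in the 4 vehicle libraries, again without overlap (-1.72 ± 0.36 (SE), adjusted p = 0.000304). In RH4 the KB-0742 libraries had 2.77, 10.8, 4.13 and 4.97 CPM, all below the 18.4, 16, 15.2 and 16.6 CPM of the vehicle libraries (-1.55 ± 0.37 (SE), adjusted p = 0.000699). With KI-CDK9d-32 the 8 h changes were -0.60 ± 0.33 (SE) in PSN1 and -0.059 ± 0.31 in RH4, neither called. At 4 h KB-0742 had already lowered CPSF4 by log2 changes of -2.28 ± 0.37, -1.21 ± 0.35 and -1.62 ± 0.38 (SE) in MOLT4, PSN1 and RH4. Exons of CPSF4 overlap those of a read-through transcript of neighbouring genes, and these unstranded counts cannot tell them apart.

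WDR33, the other subunit that reads the poly(A) signal, moved the opposite way with KB-0742 relative to other genes. In MOLT4 at 8 h, WDR33 had 231, 219, 166 and 141 CPM in the 4 KB-0742 libraries, against 54, 60.2, 64.1 and 55.7 CPM in the 4 vehicle libraries (1.69 ± 0.16 (SE), adjusted p = 1.21e-12; 0.34 on the spike-in scale). Every KB-0742 library exceeded every vehicle library, and exons of WDR33 overlap those of another gene. In RH4, WDR33 had 111, 125, 126 and 98.6 CPM in the 4 KB-0742 libraries, against 38.8, 48.3, 47.9 and 51.7 CPM in the 4 vehicle libraries (1.31 ± 0.15 (SE), adjusted p = 3.85e-09), which was -0.29 and not a rise on the spike-in scale. Here too the groups did not overlap. The PSN1 libraries had 53.1, 59.2, 61.5 and 53.9 CPM with KB-0742, against 51.7, 42, 44.1 and 34.9 CPM with vehicle (0.40 ± 0.16 (SE), adjusted p = 0.0457; -0.48 on the spike-in scale), a call lost without any 1 of 7 of the 8 libraries (adjusted p = 0.0511 to 0.163), namely vehicle replicate 2, vehicle replicate 3, vehicle replicate 4, KB-0742 replicate 1, KB-0742 replicate 2, KB-0742 replicate 3 and KB-0742 replicate 4. With KI-CDK9d-32 the changes of WDR33 were -0.25 ± 0.18, -0.24 ± 0.16 and -0.080 ± 0.16 (SE) at 8 h in MOLT4, PSN1 and RH4, none called.

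CPSF3, the endonuclease that cuts mRNA precursors, fell at 8 h with KI-CDK9d-32 in MOLT4. CPSF3 had 24.2, 16.5, 8.3 and 14.6 CPM in the 4 KI-CDK9d-32 libraries, against 47.7, 51.1, 54.3 and 45.6 CPM in the 4 vehicle libraries (-1.60 ± 0.20 (SE), adjusted p = 1.59e-09), and the groups did not overlap. KB-0742 libraries of MOLT4 had 35.7, 22.5, 41.4 and 41 CPM, also below vehicle (-0.49 ± 0.17 (SE), adjusted p = 0.0149), a call lost without KB-0742 replicate 2 (adjusted p = 0.108). At 2 h CPSF3 had been called higher relative to other genes with KB-0742 in MOLT4 (-0.38 on the spike-in scale). In RH4 the larger fall was with KB-0742, where CPSF3 had 26, 27.4, 14.1 and 7.46 CPM in the 4 KB-0742 libraries, against 50.5, 56.1, 63.9 and 54.2 CPM in the 4 vehicle libraries (-1.54 ± 0.21 (SE), adjusted p = 1.34e-07). KI-CDK9d-32 libraries of RH4 had 38.2, 43.3, 36.1 and 24.6 CPM (-0.66 ± 0.19 (SE), adjusted p = 0.0136), a call lost without vehicle replicate 3 (adjusted p = 0.0538) or KI-CDK9d-32 replicate 4 (adjusted p = 0.0892). In PSN1, KB-0742 lowered CPSF3 (-0.82 ± 0.26 (SE), adjusted p = 0.0158), a call lost without vehicle replicate 1 (adjusted p = 0.116) or KB-0742 replicate 4 (adjusted p = 0.0578), and KI-CDK9d-32 gave -0.35 ± 0.26 (SE), adjusted p = 0.369.

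CPSF1, the large scaffold subunit, and SYMPK, the symplekin scaffold, rose relative to other genes with KI-CDK9d-32 in MOLT4. At 8 h, CPSF1 had 147, 139, 142 and 132 CPM in the 4 KI-CDK9d-32 libraries, against 80.7, 81, 64.1 and 84.8 CPM in the 4 vehicle libraries (0.85 ± 0.14 (SE), adjusted p = 1.87e-06; -1.99 on the spike-in scale). All KI-CDK9d-32 libraries lay above vehicle. SYMPK had 64.2, 59.2, 39.7 and 43.9 CPM in the 4 KI-CDK9d-32 libraries, against 35.1, 29, 28.5 and 34.6 CPM in the 4 vehicle libraries (0.71 ± 0.19 (SE), adjusted p = 0.00217; -2.09 on the spike-in scale), again without overlap. Neither gene was called with KI-CDK9d-32 at 8 h in PSN1 or RH4. FIP1L1, which links CPSF to poly(A) polymerase, fell with KI-CDK9d-32 in MOLT4 by log2 changes of -0.65 ± 0.17 at 4 h and -1.60 ± 0.18 at 8 h (SE). CPSF2, the inactive partner of CPSF3, was lower with KB-0742 at 8 h in MOLT4 (-0.72 ± 0.22 (SE), adjusted p = 0.00503) and was not called in PSN1 or RH4 with either compound. With KI-CDK9d-32 at 4 h in MOLT4 it was called higher relative to other genes (-0.46 on the spike-in scale). Of the 7 CPSF genes, 2 rose and 2 fell with KI-CDK9d-32 at 8 h in MOLT4, and 3 rose and 3 fell with KB-0742, where the background was 20.8% up and 28.7% down with KI-CDK9d-32 and 23.4% up and 25.8% down with KB-0742. Their median changes were -0.22 and -0.29, beside -0.18 and -0.10 over all genes tested.

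The CstF subunits did not move together. CSTF1, the subunit with WD repeats, rose with KB-0742 at 8 h in MOLT4 relative to other genes, where CSTF1 had 172, 166, 160.0 and 131 CPM in the 4 KB-0742 libraries, against 50.7, 59.8, 46.5 and 45.3 CPM in the 4 vehicle libraries (1.63 ± 0.14 (SE), adjusted p = 1.01e-13; 0.30 on the spike-in scale). No KB-0742 library came near the vehicle range. In RH4 the same comparison gave 1.0 ± 0.14 (SE), adjusted p = 1.67e-07, which was -0.61 on the spike-in scale, and in PSN1 0.30 ± 0.14 (SE), adjusted p = 0.106. With KI-CDK9d-32, CSTF1 fell in MOLT4 at 2 h (-0.75 ± 0.15 (SE), adjusted p = 0.00039) and 4 h (-1.02 ± 0.17 (SE), adjusted p = 2.53e-06).

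CSTF2, which binds the GU-rich element, fell with KI-CDK9d-32 in MOLT4. At 8 h, CSTF2 had 9.83, 22.6, 3.69 and 6.43 CPM in the 4 KI-CDK9d-32 libraries, against 42, 53.9, 44.7 and 46.9 CPM in the 4 vehicle libraries (-2.08 ± 0.24 (SE), adjusted p = 4.15e-10). The groups did not overlap, and the KI-CDK9d-32 libraries themselves spread widely. KB-0742 lowered CSTF2 at 8 h by smaller log2 changes of -0.60 ± 0.20 in MOLT4, -0.71 ± 0.21 in PSN1 and -0.87 ± 0.23 in RH4 (SE), and the MOLT4 call was lost without KB-0742 replicate 4 (adjusted p = 0.0552). Its intronless paralog CSTF2T was higher relative to other genes with KB-0742 at 8 h in RH4 (1.09 ± 0.23 (SE), adjusted p = 0.000149; -0.50 on the spike-in scale). The paralogs resemble each other in sequence, so part of their reads may have been assigned to either.

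CSTF3, the scaffold that bridges CstF and CPSF, was called lower at 4 h with KB-0742 and not with KI-CDK9d-32. In PSN1 at 4 h, CSTF3 had 3.97, 4.8, 5.04 and 7.7 CPM in the 4 KB-0742 libraries, against 22, 21.3, 22.1 and 15.1 CPM in the 4 vehicle libraries (-1.88 ± 0.28 (SE), adjusted p = 4.42e-06). The KB-0742 libraries all lay below vehicle, and the KI-CDK9d-32 libraries, at 17.4, 19.7, 23.8 and 29.7 CPM, lay within and above it. Exons of CSTF3 overlap those of other genes. The fall at 4 h was also called in MOLT4, and in RH4 at -1.18 ± 0.22 (SE), adjusted p = 3.73e-05. At 8 h KI-CDK9d-32 raised CSTF3 in RH4 relative to other genes, where CSTF3 had 36.4, 32.6, 41.8 and 45.2 CPM in the 4 KI-CDK9d-32 libraries, against 22.7, 26.6, 13.2 and 24.2 CPM in the 4 vehicle libraries (0.85 ± 0.20 (SE), adjusted p = 0.00182; -0.0068 on the spike-in scale), without overlap.

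Within cleavage factor I, which binds UGUA elements upstream of the cut, CPSF6 separated the compounds. In MOLT4 at 8 h CPSF6 had 86.5, 79.9, 54.4 and 93 CPM in the 4 KI-CDK9d-32 libraries, 23, 24.1, 33.3 and 20.5 CPM in the 4 KB-0742 libraries and 58.9, 63, 47.9 and 59.9 CPM in the 4 vehicle libraries. KB-0742 libraries lay below vehicle without overlap (-1.19 ± 0.16 (SE), adjusted p = 2.64e-08), and KI-CDK9d-32 libraries mostly above it (0.46 ± 0.15 (SE), adjusted p = 0.00951; -2.28 on the spike-in scale). RH4 showed the same order, with 89.5, 80.9, 80.4 and 70.2 CPM in the 4 KI-CDK9d-32 libraries, 26.6, 28, 22.4 and 23.2 CPM in the 4 KB-0742 libraries and 55.7, 47.2, 49 and 56.5 CPM in the 4 vehicle libraries. None of the 3 ranges overlapped (0.62 ± 0.15 (SE), adjusted p = 0.0022 with KI-CDK9d-32, -0.27 on the spike-in scale, and -1.05 ± 0.17 (SE), adjusted p = 1.82e-06 with KB-0742). In PSN1 at 8 h the rise with KI-CDK9d-32 (0.65 ± 0.19 (SE), adjusted p = 0.013; -0.28 on the spike-in scale) was lost without vehicle replicate 3 (adjusted p = 0.0712) or KI-CDK9d-32 replicate 1 (adjusted p = 0.0748), and KB-0742 gave -0.41 ± 0.20 (SE), adjusted p = 0.12.

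NUDT21, the UGUA-binding subunit of cleavage factor I, was not called at 8 h in MOLT4. It had 89.8, 104, 80.2 and 129 CPM in the 4 KI-CDK9d-32 libraries, 97.6, 130.4, 148 and 125 CPM in the 4 KB-0742 libraries and 87.5, 108, 119 and 98.4 CPM in the 4 vehicle libraries, and all 3 groups overlapped (-0.024 ± 0.13 (SE), adjusted p = 0.896 with KI-CDK9d-32 and 0.28 ± 0.13 (SE), adjusted p = 0.0658 with KB-0742). It was higher relative to other genes with KB-0742 at 4 h in MOLT4 (0.56 ± 0.14 (SE), adjusted p = 0.00107; -0.72 on the spike-in scale and -0.40 there without KB-0742 replicate 3). At 4 h it was also called higher relative to other genes in PSN1 and RH4 (-0.37 and -0.62 on the spike-in scale). The PSN1 call was lost without at least 1 library. CPSF7, an alternative partner of NUDT21, fell with KB-0742 at 2 and 4 h in MOLT4 and was higher relative to other genes at 8 h with both compounds. At 8 h it had 77.3, 83.6, 77.5 and 86.6 CPM in the 4 KI-CDK9d-32 libraries, 60.1, 79.6, 89 and 111 CPM in the 4 KB-0742 libraries and 60.8, 43.6, 64.8 and 56.6 CPM in the 4 vehicle libraries. KI-CDK9d-32 libraries lay above vehicle (0.53 ± 0.16 (SE), adjusted p = 0.00574; -2.27 on the spike-in scale), and KB-0742 libraries overlapped it slightly (0.59 ± 0.16 (SE), adjusted p = 0.00155; -0.69 on the spike-in scale).

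**Figure D2:**
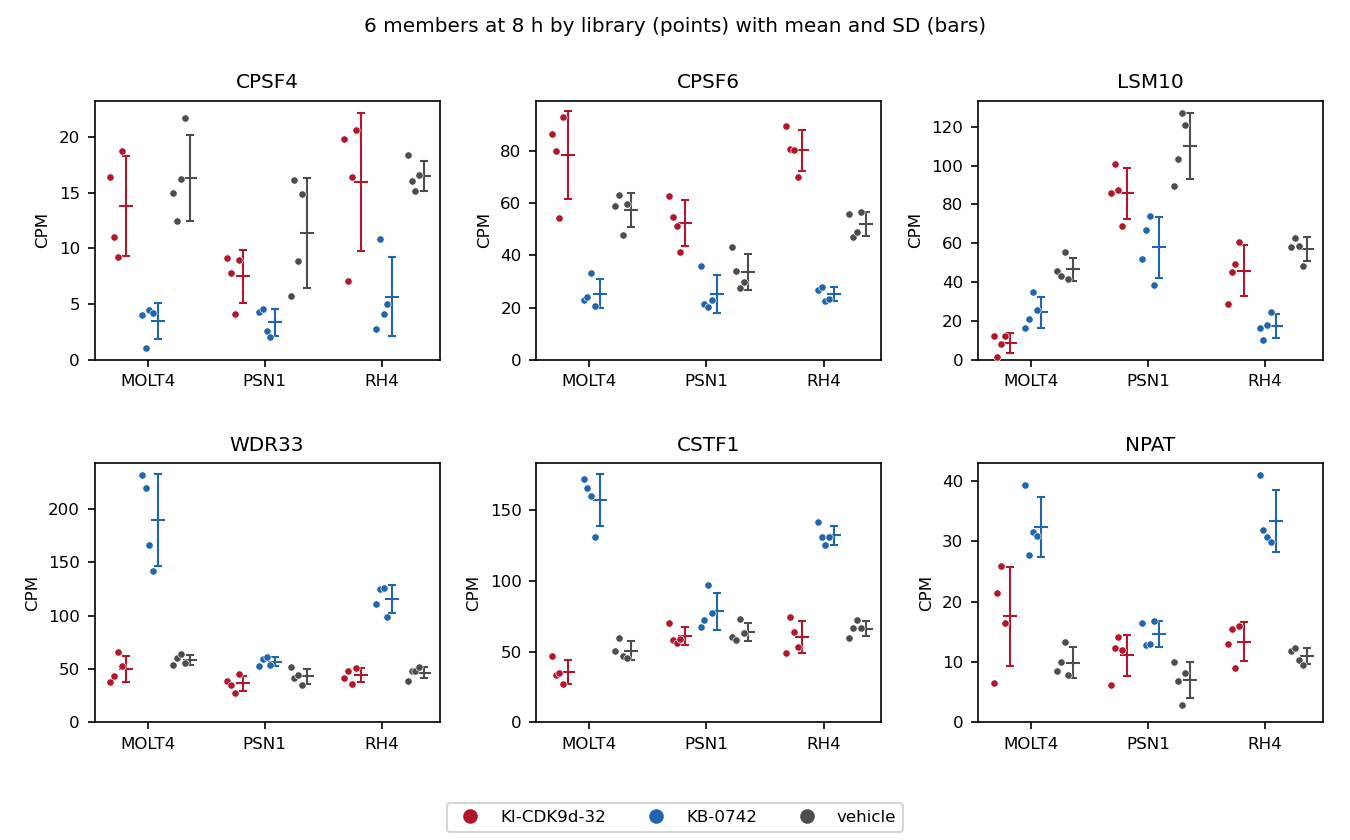
CPM at 8 h of 6 members by cell line, 1 point per library with the mean and SD as bars, KI-CDK9d-32 in red, KB-0742 in blue and vehicle in grey. On average CPSF4 and CPSF6 are lowest with KB-0742 in MOLT4 and RH4, LSM10 is lowest with KI-CDK9d-32 in MOLT4 and with KB-0742 in PSN1 and RH4, and WDR33, CSTF1 and NPAT are highest with KB-0742 in MOLT4 and RH4.

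CLP1, an RNA kinase of cleavage factor II and of the tRNA splicing endonuclease, moved in opposite directions with the compounds in MOLT4. At 4 h CLP1 had 2.59, 4.19, 3.5 and 3.65 CPM in the 4 KI-CDK9d-32 libraries, 56.6, 57, 41.8 and 81.8 CPM in the 4 KB-0742 libraries and 30.4, 27.1 and 24.7 CPM in the 3 vehicle libraries. None of these ranges overlapped (-2.97 ± 0.34 (SE), adjusted p = 1.42e-09 with KI-CDK9d-32; 1.13 ± 0.26 (SE), adjusted p = 0.000459 with KB-0742, -0.10 on the spike-in scale and 0.26 there without KB-0742 replicate 3). Exons of CLP1 overlap those of other genes. The fall with KI-CDK9d-32 was present at 2 h, where CLP1 had 1.86, 10.2, 8.2 and 9.47 CPM in the 4 KI-CDK9d-32 libraries, against 39.8, 23.9, 25.7 and 30.1 CPM in the 4 vehicle libraries (-2.0 ± 0.27 (SE), adjusted p = 6.43e-07). At 8 h it was smaller, with 14.4, 19.5, 8.3 and 8.77 CPM against 30.5, 21.5, 27.5 and 29.5 CPM in vehicle (-1.07 ± 0.29 (SE), adjusted p = 0.00161). The change from 4 h to 8 h was itself called (1.90 ± 0.46 (SE), adjusted p = 0.00291), while KB-0742 kept CLP1 higher at 8 h (1.33 ± 0.24 (SE), adjusted p = 6.37e-06; -0.042 on the spike-in scale). In RH4 at 8 h, CLP1 had 84.7, 88.6, 81.9 and 79.6 CPM in the 4 KB-0742 libraries, against 30.7, 32.6, 33.6 and 23.9 CPM in the 4 vehicle libraries (1.47 ± 0.17 (SE), adjusted p = 1.2e-09; -0.11 on the spike-in scale), without overlap, and in PSN1 KB-0742 libraries had 32.4, 26.7, 40.0 and 31.9 CPM against 19.5, 22.9, 16 and 16 CPM with vehicle (0.82 ± 0.23 (SE), adjusted p = 0.00523; -0.081 on the spike-in scale). KI-CDK9d-32 gave 0.12 ± 0.23 and 0.086 ± 0.17 (SE) in these lines at 8 h, neither called.

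PCF11 fell early with KB-0742. At 2 h in MOLT4, PCF11 had 1.6, 0.727, 1.99 and 1.54 CPM in the 4 KB-0742 libraries, against 9.62, 2.78, 12.2 and 5.96 CPM in the 4 vehicle libraries (-2.35 ± 0.46 (SE), adjusted p = 7.51e-05), and the highest KB-0742 library lay below the lowest vehicle library. In RH4 at 4 h, PCF11 had 3.45, 3.1, 3.44 and 2.48 CPM in the 4 KB-0742 libraries, against 14.3, 8.26, 9.89 and 6.99 CPM in the 4 vehicle libraries (-1.66 ± 0.38 (SE), adjusted p = 0.000644), also without overlap. These are low counts, with 16 in all over the 4 KB-0742 libraries of MOLT4 and 26 over those of RH4. By 8 h the direction in MOLT4 had turned, and PCF11 had 14.5, 8.9, 13 and 12.9 CPM in the 4 KB-0742 libraries, against 4.9, 6.23, 5.99 and 5.18 CPM in the 4 vehicle libraries (1.14 ± 0.39 (SE), adjusted p = 0.0119; -0.17 on the spike-in scale). The 8 h effect exceeded the 4 h effect by 2.35 ± 0.59 (SE), adjusted p = 0.0032 on the log2 scale in MOLT4. With KI-CDK9d-32 no PCF11 change was called in any line, and the 8 h values were 0.46 ± 0.41, 0.45 ± 0.31 and 0.85 ± 0.32 (SE) in MOLT4, PSN1 and RH4. PCF11 overlaps an antisense gene in its exons, whose reads cannot be separated here.

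PAPOLA, the canonical poly(A) polymerase, was not called in any of the 15 comparisons with vehicle. In MOLT4 at 8 h it had 38, 36, 24.9 and 42.1 CPM in the 4 KI-CDK9d-32 libraries, 29.8, 29.3, 24.3 and 22 CPM in the 4 KB-0742 libraries and 33, 26.5, 21.8 and 26.5 CPM in the 4 vehicle libraries, and the ranges overlapped (0.40 ± 0.20 (SE), adjusted p = 0.103 and -0.043 ± 0.20 (SE), adjusted p = 0.882). PABPN1, which coats the growing tail, rose relative to other genes with KI-CDK9d-32 in PSN1. At 8 h, PABPN1 had 67, 75.8, 89.7 and 71.3 CPM in the 4 KI-CDK9d-32 libraries, against 47.9, 39, 51.2 and 40.2 CPM in the 4 vehicle libraries (0.77 ± 0.16 (SE), adjusted p = 0.000624; -0.18 on the spike-in scale). The groups did not overlap, though exons of PABPN1 are shared with a BCL2L2-PABPN1 read-through transcript. RBBP6, a cofactor of the cleavage step, was called lower with KB-0742 at 4 h in all 3 lines. The PSN1 call was lost without at least 1 library. In RH4 the change was -1.14 ± 0.29 (SE), adjusted p = 0.00254 at 4 h and -0.28 ± 0.29 (SE) at 8 h, which was not called.

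XRN2, the torpedo exonuclease, fell with KB-0742 at 8 h in MOLT4 and RH4. In RH4, XRN2 had 32.7, 43.3, 39.5 and 39.8 CPM in the 4 KB-0742 libraries, against 61.4, 71.2, 68.3 and 78.4 CPM in the 4 vehicle libraries (-0.85 ± 0.15 (SE), adjusted p = 1.42e-05). No KB-0742 library overlapped vehicle, whereas the KI-CDK9d-32 libraries did, with 71.5, 82.9, 62.3 and 63.4 CPM (0.0056 ± 0.14 (SE), adjusted p = 0.988). MOLT4 gave -0.55 ± 0.16 (SE), adjusted p = 0.00411 with KB-0742 at 8 h and PSN1 0.0014 ± 0.16 (SE), adjusted p = 0.997. The PSN1 and RH4 values differed, at -0.83 ± 0.27 (SE), adjusted p = 0.0478 for RH4 minus PSN1, a call lost without any 1 of 9 of the 16 libraries (adjusted p = 0.0559 to 0.143), namely PSN1 vehicle replicate 2, PSN1 vehicle replicate 4, PSN1 KB-0742 replicate 1, PSN1 KB-0742 replicate 3, RH4 vehicle replicate 2, RH4 vehicle replicate 4, RH4 KB-0742 replicate 1, RH4 KB-0742 replicate 3 and RH4 KB-0742 replicate 4.

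Integrator held the lowest log2 change of any member against vehicle, that of INTS6 with KI-CDK9d-32 at 4 h in MOLT4. With KI-CDK9d-32 at 8 h, 8 of 14 subunits were lower and 2 higher in MOLT4, 4 lower and 1 higher in PSN1, and 3 lower and 0 higher in RH4. The backgrounds were 20.8% up and 28.7% down in MOLT4, 11% up and 9.61% down in PSN1 and 9.19% up and 6.05% down in RH4. Their median log2 changes were -0.95, -0.69 and -0.44, beside -0.18, -0.053 and -0.040 over all genes tested. With KB-0742 at 8 h the counts were 6 lower and 1 higher in MOLT4 (23.4% up and 25.8% down), 3 lower and 1 higher in PSN1 (15.1% up and 15.1% down), and 7 lower and 0 higher in RH4 (22.5% up and 22.9% down). The medians were -0.25, -0.44 and -0.43 beside -0.10, -0.051 and -0.086. On the spike-in scale no subunit was higher with either compound, and 14, 12 and 12 were lower with KI-CDK9d-32 in MOLT4, PSN1 and RH4. With KB-0742 11, 10 and 14 were lower.

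INTS6, which with INTS8 and INTS5 recruits the phosphatase PP2A to Integrator, fell within 2 h of KI-CDK9d-32 in MOLT4. At 2 h, INTS6 had 1.24, 1.49, 0.684 and 1.48 CPM in the 4 KI-CDK9d-32 libraries, against 4.54, 5.28, 10.4 and 4.47 CPM in the 4 vehicle libraries (-2.28 ± 0.55 (SE), adjusted p = 0.00339). At 4 h the KI-CDK9d-32 libraries had 0, 0.381, 0 and 2.44 CPM, against 7.13, 5.86 and 4.89 CPM with vehicle (-3.26 ± 0.69 (SE), adjusted p = 0.000201), and rested on 5 counts in all. Neither time showed overlap. At 8 h, INTS6 had 9.83, 1.83, 1.84 and 1.17 CPM in the 4 KI-CDK9d-32 libraries, against 3.54, 4.05, 7.4 and 4.53 CPM in the 4 vehicle libraries (-0.39 ± 0.55 (SE), adjusted p = 0.585). Replicate 1 alone exceeded vehicle, and the other 3 KI-CDK9d-32 libraries lay below it. KB-0742 did not lower INTS6 in MOLT4 (-0.21 ± 0.48, 0.44 ± 0.52 and 0.18 ± 0.50 (SE) at 2, 4 and 8 h, none called).

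PSN1 showed the same fall of INTS6 at 4 and 8 h. At 8 h, INTS6 had 3.74, 3.35, 3.17 and 2.99 CPM in the 4 KI-CDK9d-32 libraries, against 7.28, 4.66, 9.47 and 9.08 CPM in the 4 vehicle libraries (-1.20 ± 0.35 (SE), adjusted p = 0.0108), and at 4 h the change was -1.43 ± 0.35 (SE), adjusted p = 0.00748. All KI-CDK9d-32 libraries lay below all vehicle libraries, while KB-0742 libraries at 8 h had 10.4, 7.81, 9.46 and 15.2 CPM (0.46 ± 0.31 (SE), adjusted p = 0.275). In RH4 at 4 h, INTS6 had 2.86, 2.32, 1.49 and 0.919 CPM in the 4 KI-CDK9d-32 libraries, against 7.14, 6.06, 6.93 and 8.98 CPM in the 4 vehicle libraries (-1.91 ± 0.48 (SE), adjusted p = 0.0124), without overlap. That call was lost without KI-CDK9d-32 replicate 4 (adjusted p = 0.0528). At 8 h the KI-CDK9d-32 libraries of RH4 had 0, 2.01, 3.28 and 2.14 CPM, against 7.46, 4.86, 3.73 and 5.62 CPM with vehicle (-1.50 ± 0.49 (SE), adjusted p = 0.0326), again below every vehicle library, and the call was lost without any 1 of 5 of the 8 libraries (adjusted p = 0.0587 to 0.112), namely vehicle replicate 1, vehicle replicate 4, KI-CDK9d-32 replicate 1, KI-CDK9d-32 replicate 2 and KI-CDK9d-32 replicate 4. INTS6 shares exonic sequence with an antisense gene and has a paralog, INTS6L, so a part of its reads may belong to these.

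**Figure D3:**
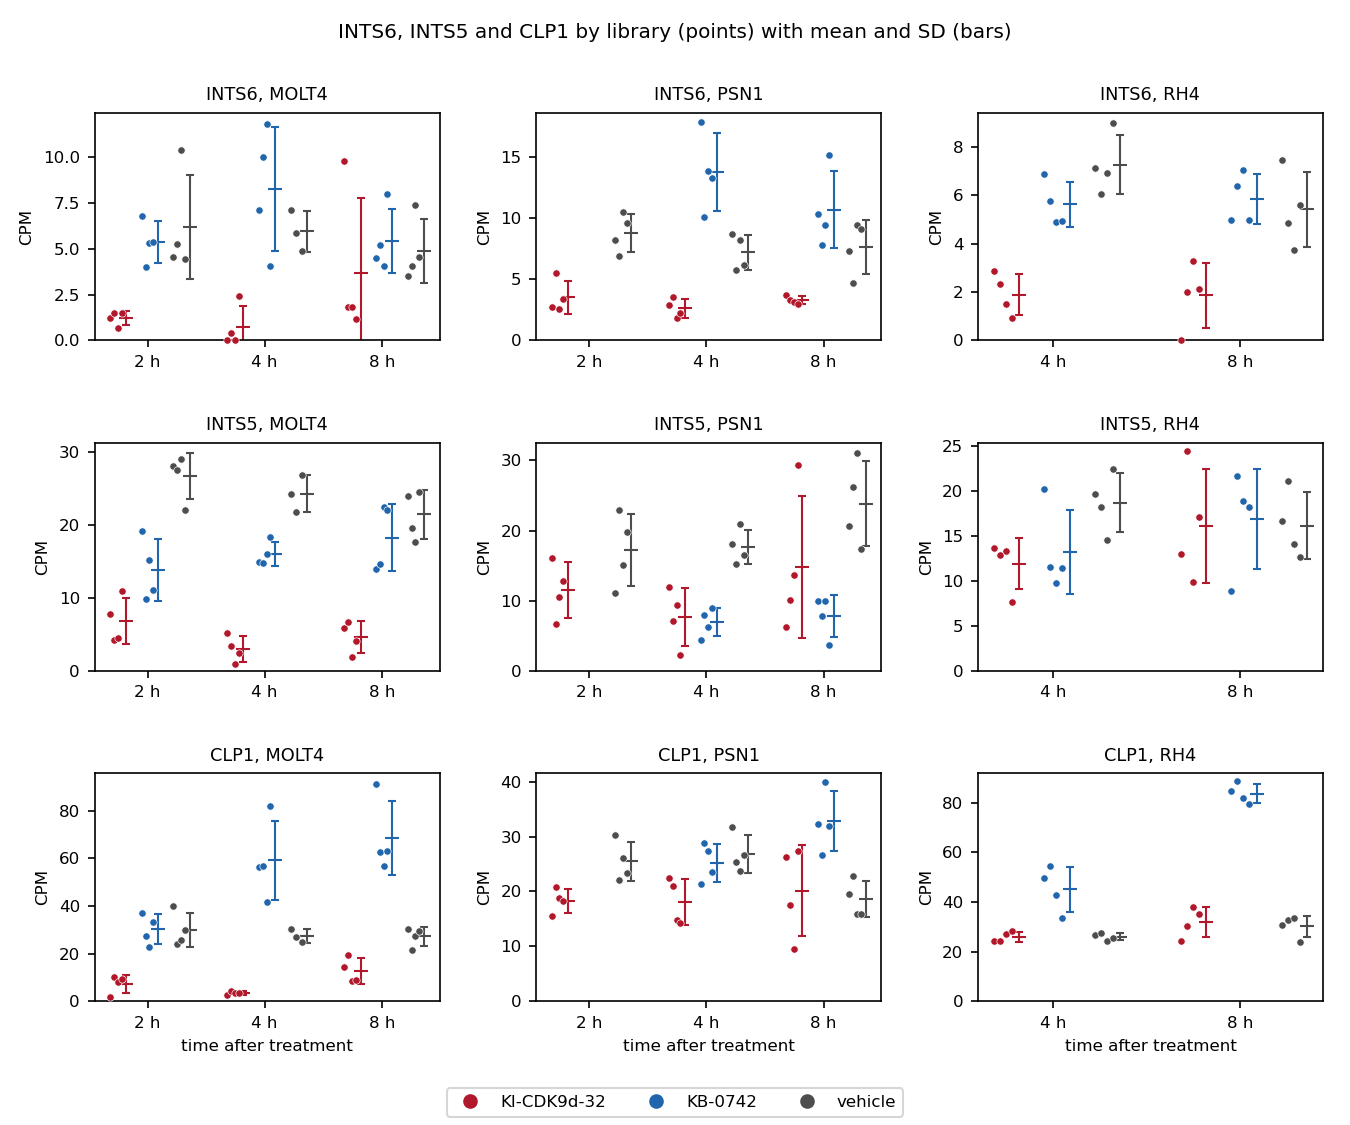
CPM of INTS6, INTS5 and CLP1 (rows) in MOLT4, PSN1 and RH4 (columns) by time after treatment, 1 point per library with the mean and SD as bars, KI-CDK9d-32 in red, KB-0742 in blue and vehicle in grey. The KI-CDK9d-32 points of INTS6 lie below vehicle in all 3 lines at 4 h, those of INTS5 and CLP1 in MOLT4 at every time.

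INTS5, a subunit of the same phosphatase module, fell with KI-CDK9d-32 in MOLT4 at all 3 times. At 4 h, INTS5 had 5.18, 3.43, 1 and 2.44 CPM in the 4 KI-CDK9d-32 libraries, against 24.3, 21.8 and 26.9 CPM in the 3 vehicle libraries (-2.92 ± 0.34 (SE), adjusted p = 1.64e-09), and at 8 h 5.9, 6.71, 1.84 and 4.09 CPM with KI-CDK9d-32 stood against 24, 19.6, 17.6 and 24.6 CPM with vehicle (-2.15 ± 0.33 (SE), adjusted p = 4.01e-07). The groups were apart at both times, and the 2 h change was -1.95 ± 0.28 (SE), adjusted p = 1.84e-06. Exons of INTS5 overlap those of another gene. With KB-0742, INTS5 fell in PSN1, where INTS5 had 9.92, 7.81, 9.89 and 3.66 CPM in the 4 KB-0742 libraries, against 20.7, 26.3, 31.1 and 17.3 CPM in the 4 vehicle libraries at 8 h (-1.59 ± 0.38 (SE), adjusted p = 0.00135). KI-CDK9d-32 also lowered INTS5 in PSN1 at 4 h. Of the 2 Integrator calls in that comparison, 1 held when each library was left out in turn. At 8 h the KI-CDK9d-32 libraries of PSN1 reached from below to within the vehicle range, with 6.24, 10.0, 13.6 and 29.4 CPM (-0.70 ± 0.36 (SE), adjusted p = 0.163). RH4 gave no call for INTS5 with either compound at 8 h (0.013 ± 0.28 and 0.057 ± 0.29, SE). The MOLT4 and RH4 effects of KI-CDK9d-32 differed by -2.03 ± 0.53 (SE), adjusted p = 0.00472 (MOLT4 minus RH4).

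INTS8, the subunit that links the phosphatase module to the core, fell with KB-0742. In MOLT4 at 8 h, INTS8 had 1.81, 1.05, 0 and 3.8 CPM in the 4 KB-0742 libraries, against 8.99, 8.1, 9.16 and 12 CPM in the 4 vehicle libraries (-2.43 ± 0.51 (SE), adjusted p = 9.86e-05), and in RH4 1.66, 0, 2.36 and 0 CPM with KB-0742 stood against 6.89, 4.29, 9.46 and 6.18 CPM with vehicle (-2.57 ± 0.70 (SE), adjusted p = 0.00255), on 7 counts in all. Both comparisons were without overlap between libraries, and exons of INTS8 overlap those of another gene. KI-CDK9d-32 gave -1.07 ± 0.48, -1.12 ± 0.50 and -0.76 ± 0.54 (SE) at 8 h in MOLT4, PSN1 and RH4, none called.

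INTS7 fell with both compounds in all 3 lines at 8 h. In PSN1 it had 15, 11.5, 14.5 and 4.98 CPM in the 4 KI-CDK9d-32 libraries, 10.4, 12.3, 9.46 and 13.1 CPM in the 4 KB-0742 libraries and 29.5, 24.2, 33.1 and 15.4 CPM in the 4 vehicle libraries, and neither compound overlapped vehicle (-1.14 ± 0.28 (SE), adjusted p = 0.00244 and -1.17 ± 0.28 (SE), adjusted p = 0.00123). In RH4, INTS7 had 1.8, 6.04, 4.51 and 8.9 CPM in the 4 KI-CDK9d-32 libraries, against 16.7, 13.4, 12.3 and 12.6 CPM in the 4 vehicle libraries (-1.34 ± 0.41 (SE), adjusted p = 0.0196), a call lost without vehicle replicate 1 (adjusted p = 0.0601), KI-CDK9d-32 replicate 1 (adjusted p = 0.0917) or KI-CDK9d-32 replicate 3 (adjusted p = 0.0606), and KB-0742 gave -1.68 ± 0.45 (SE), adjusted p = 0.00222. In MOLT4 the values were -1.47 ± 0.31 (SE), adjusted p = 8.68e-05 with KI-CDK9d-32 and -0.79 ± 0.27 (SE), adjusted p = 0.0138 with KB-0742, the second lost without vehicle replicate 3 (adjusted p = 0.0545) or KB-0742 replicate 1 (adjusted p = 0.101).

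The arm of INTS10, INTS13 and INTS14 was lower in several comparisons. INTS10 fell with KB-0742 at 8 h in MOLT4, where it had 18.1, 11.5, 21.6 and 15.6 CPM in the 4 KB-0742 libraries against 48.8, 47.1, 27.8 and 44 CPM in the 4 vehicle libraries (-1.33 ± 0.21 (SE), adjusted p = 7.15e-07), without overlap. In RH4 it had 16.6, 23.2, 16.4 and 21.7 CPM in the 4 KI-CDK9d-32 libraries, 14.9, 5.74, 11.2 and 12.4 CPM in the 4 KB-0742 libraries and 27, 44.9, 39.3 and 31.8 CPM in the 4 vehicle libraries, both compounds below vehicle (-0.87 ± 0.21 (SE), adjusted p = 0.00327 and -1.68 ± 0.24 (SE), adjusted p = 2.63e-07). INTS13 fell furthest with KI-CDK9d-32 in MOLT4, where INTS13 had 2.62, 2.44, 0 and 1.75 CPM in the 4 KI-CDK9d-32 libraries, against 11.4, 8.1, 12 and 9.39 CPM in the 4 vehicle libraries at 8 h (-2.46 ± 0.51 (SE), adjusted p = 5.87e-05), on 11 counts in all and without overlap. PSN1 gave -0.87 ± 0.21 (SE), adjusted p = 0.00254 with KI-CDK9d-32. INTS14 was lower at 8 h with KI-CDK9d-32 in MOLT4 (-1.07 ± 0.20 (SE), adjusted p = 9.95e-06) and with KB-0742 in RH4 (-0.99 ± 0.26 (SE), adjusted p = 0.00211).

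INTS11, the endonuclease, did not follow the other subunits. In PSN1 at 8 h, INTS11 had 67, 75.8, 75.2 and 59.3 CPM in the 4 KI-CDK9d-32 libraries, against 36.4, 30.5, 49.99 and 41.3 CPM in the 4 vehicle libraries (0.80 ± 0.16 (SE), adjusted p = 0.000203; -0.14 on the spike-in scale). All KI-CDK9d-32 libraries exceeded vehicle relative to other genes, and KB-0742 gave 0.57 ± 0.16 (SE), adjusted p = 0.00477 (-0.28 on the spike-in scale). INTS11 was also called higher relative to other genes with KI-CDK9d-32 in MOLT4 at 4 and 8 h. On the spike-in scale these MOLT4 changes were -0.46 and -2.29. Its catalytically inactive partner INTS9 and the third member of the cleavage module, INTS4, fell with KI-CDK9d-32 in MOLT4 (-0.98 ± 0.23 (SE), adjusted p = 0.00031 and -0.91 ± 0.27 (SE), adjusted p = 0.00466). INTS11 overlaps a neighbouring gene in its exons, which these counts cannot separate. INTS12, a PHD-finger subunit, moved apart with the compounds in MOLT4: at 8 h KI-CDK9d-32 gave -1.73 ± 0.27 (SE), adjusted p = 5.38e-07 and KB-0742 1.45 ± 0.21 (SE), adjusted p = 8.28e-08 (0.11 on the spike-in scale). INTS12, whose exons overlap those of other genes, was not called with either compound in PSN1 or RH4. INTS3, shared with the SOSS complex of DNA repair, fell with KI-CDK9d-32 in PSN1, where INTS3 had 20.4, 20.8, 17.7 and 11 CPM in the 4 KI-CDK9d-32 libraries, against 42.1, 34.3, 31.6 and 32.7 CPM in the 4 vehicle libraries at 8 h (-1.0 ± 0.22 (SE), adjusted p = 0.00112), without overlap. The scaffold INTS2 was not called in any comparison with vehicle, and its partner INTS1 only with KI-CDK9d-32 at 8 h in MOLT4 (0.76 ± 0.26 (SE), adjusted p = 0.0139; -1.97 on the spike-in scale), a call lost without vehicle replicate 3 (adjusted p = 0.0775) or KI-CDK9d-32 replicate 4 (adjusted p = 0.23).

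**Figure D4:**
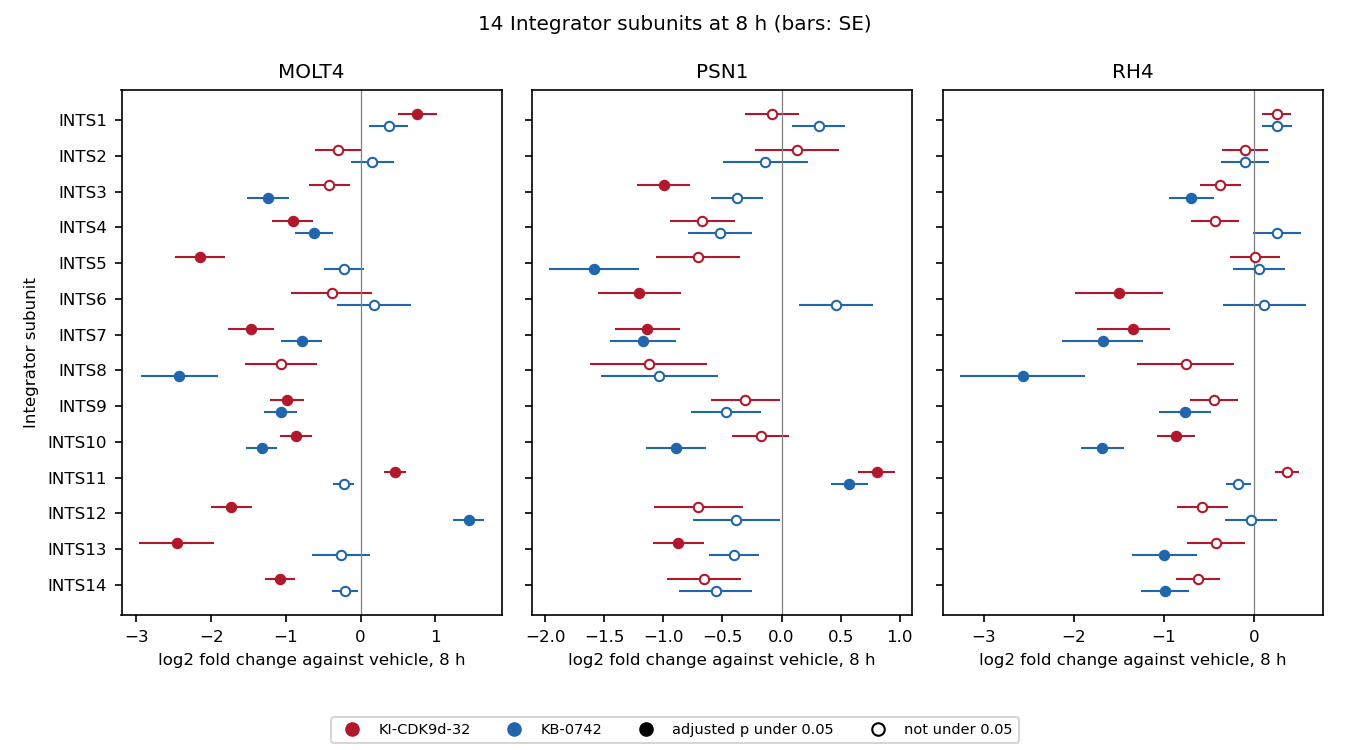
Log2 fold change against vehicle at 8 h (TMM scale, bars: SE) of INTS1 to INTS14 in MOLT4, PSN1 and RH4, KI-CDK9d-32 in red and KB-0742 in blue, filled where adjusted p is under 0.05. INTS5, INTS12 and INTS13 in MOLT4 and INTS6 in PSN1 and RH4 are lower with KI-CDK9d-32 than with KB-0742, and INTS11 is the filled subunit above 0 in PSN1.

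Among the histone mRNA genes, NPAT, the coactivator of histone gene transcription, rose relative to other genes with KB-0742. In MOLT4 at 8 h, NPAT had 39.3, 27.8, 31.5 and 30.8 CPM in the 4 KB-0742 libraries, against 8.45, 9.97, 13.4 and 7.77 CPM in the 4 vehicle libraries (1.71 ± 0.28 (SE), adjusted p = 1.48e-06; 0.40 on the spike-in scale), and in RH4, NPAT had 41, 31.9, 30.6 and 29.8 CPM in the 4 KB-0742 libraries, against 11.8, 12.3, 10.3 and 9.55 CPM in the 4 vehicle libraries (1.60 ± 0.24 (SE), adjusted p = 7.89e-07; 0.023 on the spike-in scale). No KB-0742 library overlapped vehicle in either line. PSN1 had 16.4, 12.7, 12.9 and 16.7 CPM in the 4 KB-0742 libraries against 9.96, 6.78, 2.96 and 8.25 CPM in the 4 vehicle libraries (1.07 ± 0.33 (SE), adjusted p = 0.0102; 0.17 on the spike-in scale), a call lost without vehicle replicate 3 (adjusted p = 0.0625). NPAT overlaps in its exons a gene on the opposite strand, and the 2 cannot be told apart here. KI-CDK9d-32 gave 0.81 ± 0.30, 0.68 ± 0.33 and 0.29 ± 0.25 (SE) at 8 h. The MOLT4 call (-2.06 on the spike-in scale) was lost without any 1 of 4 of the 8 libraries (adjusted p = 0.0622 to 0.107), namely vehicle replicate 1, vehicle replicate 4, KI-CDK9d-32 replicate 2 and KI-CDK9d-32 replicate 3, and the other two were not called.

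SLBP, which binds the histone stem-loop, fell early with KB-0742. At 2 h in MOLT4, SLBP had 13.2, 16, 15.3 and 18.8 CPM in the 4 KB-0742 libraries, against 68.1, 42.8, 41.6 and 35.5 CPM in the 4 vehicle libraries (-1.57 ± 0.24 (SE), adjusted p = 1.1e-06), without overlap. The change was -0.93 ± 0.26 (SE), adjusted p = 0.00337 at 4 h and 0.053 ± 0.22 (SE), adjusted p = 0.864 at 8 h. At 4 h KB-0742 also lowered SLBP in PSN1 and RH4, and the PSN1 call was lost without at least 1 library. With KI-CDK9d-32 SLBP was not called in any comparison, and at 2 h in MOLT4 it had 37.1, 29, 47.2 and 39.7 CPM, overlapping vehicle. LSM10 was low at 8 h, and KB-0742 had already lowered it at 4 h in MOLT4 and RH4. In MOLT4 it had 12.5, 1.22, 8.3 and 12.3 CPM in the 4 KI-CDK9d-32 libraries, 16.3, 21, 35.1 and 25.8 CPM in the 4 KB-0742 libraries and 45.8, 43.3, 55.3 and 41.8 CPM in the 4 vehicle libraries, with all KI-CDK9d-32 libraries below all KB-0742 libraries and these below vehicle (-2.43 ± 0.29 (SE), adjusted p = 7.27e-10 and -0.92 ± 0.23 (SE), adjusted p = 0.00105). In RH4, LSM10 had 16.6, 10.2, 17.7 and 24.9 CPM in the 4 KB-0742 libraries, against 58.3, 62.9, 58.5 and 48.3 CPM in the 4 vehicle libraries (-1.74 ± 0.26 (SE), adjusted p = 1.14e-06), without overlap, and KI-CDK9d-32 gave -0.31 ± 0.22 (SE), adjusted p = 0.39. PSN1 gave -0.93 ± 0.17 (SE), adjusted p = 3.46e-05 with KB-0742 and -0.36 ± 0.16 (SE), adjusted p = 0.106 with KI-CDK9d-32. CASP8AP2, the FLASH protein that joins the U7 snRNP, was called only with KB-0742 at 8 h in MOLT4 (0.88 ± 0.31 (SE), adjusted p = 0.0158; -0.43 on the spike-in scale) and PSN1 (1.48 ± 0.51 (SE), adjusted p = 0.0231; 0.57). The first call was lost without KB-0742 replicate 1 (adjusted p = 0.067) or KB-0742 replicate 4 (adjusted p = 0.056), the second without vehicle replicate 1 (adjusted p = 0.0734), vehicle replicate 2 (adjusted p = 0.0538) or KB-0742 replicate 3 (adjusted p = 0.12). LSM11 held 1 to 36 counts per group and was not tested.

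Time set apart a group of members that KB-0742 lowered early and no longer at 8 h in MOLT4. Beside PCF11 and SLBP, CPSF7 gave log2 changes of -0.80 ± 0.16, -0.80 ± 0.18 and 0.59 ± 0.16 (SE) at 2, 4 and 8 h, and FIP1L1 -0.97 ± 0.16, -0.59 ± 0.18 and 0.48 ± 0.15. All 6 of these values were called, and on the spike-in scale the 8 h values were -0.69 for CPSF7 and -0.85 for FIP1L1. The 8 h effect exceeded the 4 h effect by 1.39 ± 0.24 (SE), adjusted p = 2.36e-05 for CPSF7 and 1.07 ± 0.23 (SE), adjusted p = 0.000684 for FIP1L1. The difference was also called for INTS12 (1.28 ± 0.31 (SE), adjusted p = 0.00202) and CSTF1 (1.17 ± 0.21 (SE), adjusted p = 5.09e-05), neither of which was lowered at 4 h. CSTF1 was already called higher relative to other genes at 4 h (-0.82 on the spike-in scale), so its difference was a further rise on the TMM scale. In all, 9 higher and 2 lower members differed between the times (background 7.8% up and 9.95% down). With KI-CDK9d-32 in MOLT4 the count was 3 higher and 4 lower (5.15% up and 7.36% down), or 0 higher and 21 lower on the spike-in scale, where KB-0742 gave 0 higher and 0 lower. LSM10 (-1.68 ± 0.39 (SE), adjusted p = 0.00174), CPSF3 (-1.29 ± 0.27 (SE), adjusted p = 0.000414) and CSTF2 (-1.19 ± 0.33 (SE), adjusted p = 0.0111) were lower at 8 h than at 4 h. In RH4 with KB-0742, the 8 h effect was lower than the 4 h effect for CPSF3 (-1.34 ± 0.29 (SE), adjusted p = 0.00225). For WDR33, which was not called higher at 4 h, the 8 h effect was the higher one relative to other genes (0.92 ± 0.22 (SE), adjusted p = 0.00582).

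**Figure D5:**
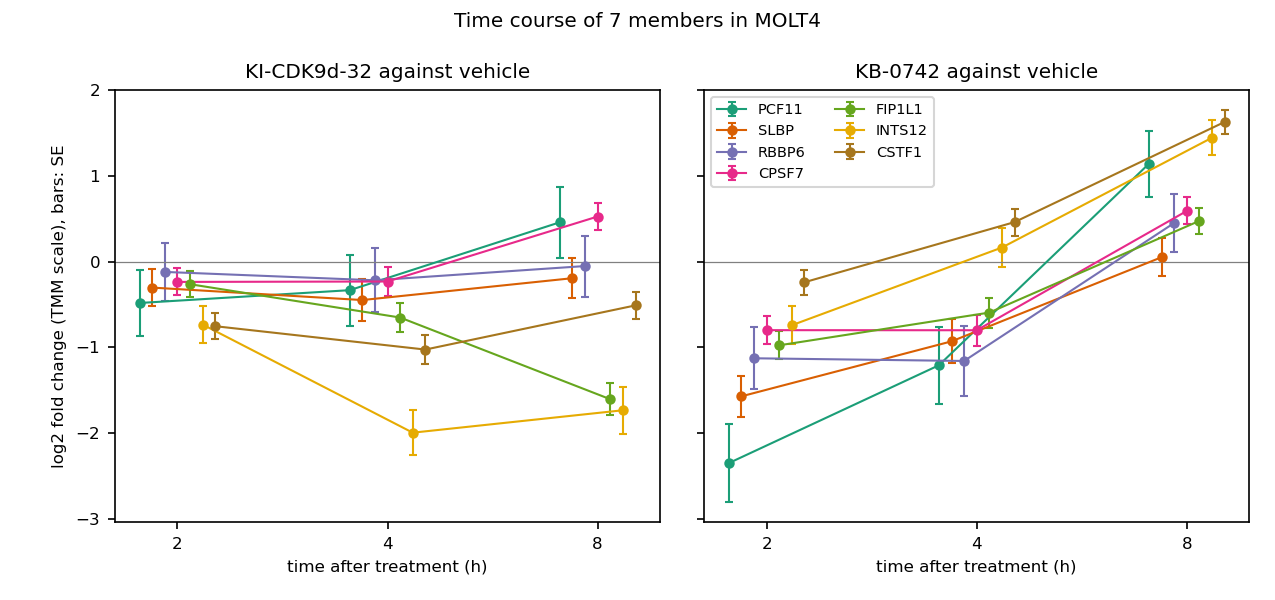
Log2 fold change against vehicle (TMM scale, bars: SE) of 7 members in MOLT4 at 2, 4 and 8 h, with KI-CDK9d-32 on the left and KB-0742 on the right. With KB-0742 all 7 lie lower at 2 h than at 8 h, and with KI-CDK9d-32 INTS12 is the lowest of the 7 at 4 and 8 h.

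The direct comparison of both compounds shows where KI-CDK9d-32 and KB-0742 differed. At 8 h, 9 members were higher and 13 lower with KI-CDK9d-32 than with KB-0742 in MOLT4 (background 28.9% up and 29.6% down; 0 higher and 27 lower on the spike-in scale), 6 and 6 in PSN1 (12% up and 12.8% down; 1 higher and 2 lower) and 11 and 7 in RH4 (19.1% up and 19.3% down; 21 higher and 0 lower). The PSN1 total of 12 was 7 without KB-0742 replicate 3. Earlier, MOLT4 had 7 members higher and 6 lower with KI-CDK9d-32 at 2 h (8.2% up and 10.1% down; 2 higher and 1 lower on the spike-in scale), a total of 13 that was 8 without KI-CDK9d-32 replicate 1. At 4 h the numbers were 7 and 8 in MOLT4 (14.6% up and 21.1% down; 2 higher and 6 lower, or 0 higher and 7 lower there without KB-0742 replicate 3), 6 and 1 in PSN1 (9.97% up and 7.47% down; 6 higher and 1 lower) and 6 and 3 in RH4 (13.4% up and 12.4% down; 19 higher and 0 lower). CPSF6 was higher with KI-CDK9d-32 than with KB-0742 in all 3 lines at 8 h (1.65 ± 0.17, 1.07 ± 0.20 and 1.67 ± 0.17, SE), and so was CPSF4 (1.98 ± 0.36, 1.12 ± 0.38 and 1.49 ± 0.38), whose PSN1 call was lost without any 1 of 4 of the 8 libraries (adjusted p = 0.0627 to 0.0899), namely KB-0742 replicate 3, KB-0742 replicate 4, KI-CDK9d-32 replicate 1 and KI-CDK9d-32 replicate 4. In MOLT4 on the spike-in scale these 2 values were 0.24 and 0.56. WDR33 was lower with KI-CDK9d-32 in all 3 lines (-1.94 ± 0.17, -0.64 ± 0.16 and -1.39 ± 0.16). CLP1 was also lower (-2.39 ± 0.28, -0.70 ± 0.23 and -1.39 ± 0.17), the PSN1 call being lost without KB-0742 replicate 3 (adjusted p = 0.0824), KI-CDK9d-32 replicate 2 (adjusted p = 0.0666) or KI-CDK9d-32 replicate 3 (adjusted p = 0.108). At 4 h CSTF3 was higher with KI-CDK9d-32 in MOLT4, PSN1 and RH4 (0.90 ± 0.26, 2.05 ± 0.28 and 1.42 ± 0.21), and INTS6 lower (-3.71 ± 0.68, -2.36 ± 0.35 and -1.55 ± 0.50), with the RH4 call of INTS6 lost without KI-CDK9d-32 replicate 4 (adjusted p = 0.065). The widest gap at 8 h was that of INTS12 in MOLT4 (-3.18 ± 0.26 (SE), adjusted p = 8.74e-15), with -0.32 ± 0.39 in PSN1 and -0.54 ± 0.30 in RH4, neither called. PAPOLA was not called in any of the 7 direct comparisons. Its difference at 8 h in MOLT4 had an unadjusted 95% interval of 0.028 to 0.85 (log2), so the missing call does not show that the compounds act alike on it.

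Between lines, the effect of KI-CDK9d-32 at 8 h was tested in a fit of all 3 lines. It differed between MOLT4 and PSN1 for 10 of 38 members (17.2% of all genes tested), between MOLT4 and RH4 for 7 (16.3%) and between RH4 and PSN1 for 0 (0.455%), where 4 had an unadjusted p under 0.05 and DESeq2 called 0. The first count was 6 without MOLT4 KI-CDK9d-32 replicate 4 or without PSN1 vehicle replicate 3 or 4, and on the spike-in scale the 3 counts were 30, 36 and 0. LSM10 fell further in MOLT4 than in PSN1 (-1.94 ± 0.40 (SE), adjusted p = 0.000287) and than in RH4 (-2.0 ± 0.40 (SE), adjusted p = 0.000265). CSTF2 did so as well (-1.63 ± 0.39 (SE), adjusted p = 0.00194 and -1.46 ± 0.40 (SE), adjusted p = 0.00653). The effect on SYMPK relative to other genes was higher in MOLT4 than in PSN1 (0.97 ± 0.26 (SE), adjusted p = 0.0068) and than in RH4 (0.96 ± 0.26 (SE), adjusted p = 0.00672). On the spike-in scale these differences were -0.99 and -1.09. With KB-0742 the effect on WDR33, CSTF1 and INTS12 was higher in MOLT4 than in PSN1 (1.25 ± 0.24, 1.30 ± 0.22 and 1.79 ± 0.42, SE). In all 3 lines at 8 h, KB-0742 lowered CPSF3, CPSF4, CSTF2, INTS7, INTS10 and LSM10 and, relative to other genes, raised CLP1, NPAT and WDR33, none of these 3 called higher on the spike-in scale. No member was called higher in one and lower in another with the same compound at 4 or 8 h. The share of all genes that meet these rules across lines is not given here, so neither statement sets the members apart from other genes.

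Genes that work beside the members were read from 3 further lists. Of those named below, SCAF8, WDR73, INTS6L, PPP2CA and ZNF473 have exons that overlap those of another gene, and unstranded counts cannot assign such reads by strand. The background at 8 h with KI-CDK9d-32 was 20.8% up and 28.7% down in MOLT4, 11% up and 9.61% down in PSN1 and 9.19% up and 6.05% down in RH4. With KB-0742 it was 23.4% up and 25.8% down, 15.1% up and 15.1% down and 22.5% up and 22.9% down. Of 18 other 3′ end and termination genes, KI-CDK9d-32 raised 3 and lowered 5 in MOLT4 at 8 h, 2 and 4 in PSN1, and in RH4 2 and 1. KB-0742 raised 9 and lowered 1 in MOLT4, 4 and 3 in PSN1, and in RH4 7 and 3. In MOLT4 8 of 18 tested (44.4%) were called with KI-CDK9d-32, beside 49.6% of all genes, and 10 (55.6%) with KB-0742, beside 49.2%. On the spike-in scale none was higher, and 18, 12 and 15 fell with KI-CDK9d-32, as did 7, 8 and 12 with KB-0742, in the same order of lines. SCAF8, an anti-termination factor that binds the polymerase, was higher relative to other genes with KB-0742 (1.59 ± 0.30, 1.26 ± 0.37 and 1.67 ± 0.31, SE; 0.21, 0.37 and 0.076 on the spike-in scale). PAPOLG, a second nuclear poly(A) polymerase, fell with KI-CDK9d-32 in MOLT4 (-3.60 ± 0.56 (SE), adjusted p = 3.7e-07), on 5 counts in all. PPP1R10, the scaffold of the nuclear phosphatase PNUTS-PP1, fell in PSN1 with KI-CDK9d-32 (-1.10 ± 0.27 (SE), adjusted p = 0.00279) and KB-0742 (-1.82 ± 0.29 (SE), adjusted p = 5.51e-06).

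Of 16 Integrator-associated genes, 15 of them tested in PSN1, KI-CDK9d-32 raised 1 and lowered 3 in MOLT4 at 8 h, 3 and 1 in PSN1, and in RH4 2 and 0. KB-0742 raised 4 and lowered 6 in MOLT4, 3 and 2 in PSN1, and in RH4 3 and 4. In MOLT4 4 of 16 tested (25%) were called with KI-CDK9d-32, beside 49.6% of all genes, and 10 (62.5%) with KB-0742, beside 49.2%. On the spike-in scale none was higher, and 16, 9 and 9 fell with KI-CDK9d-32, as did 10, 7 and 12 with KB-0742, in the same order of lines. INTS15, a later-named subunit, fell with KI-CDK9d-32 in MOLT4 (-3.24 ± 0.65 (SE), adjusted p = 3.95e-05), on 4 counts in all. WDR73, which binds INTS9 and INTS11, fell with KB-0742 in MOLT4 (-3.49 ± 0.36 (SE), adjusted p = 2.91e-11) and rose relative to other genes with KI-CDK9d-32 in RH4 (0.77 ± 0.16 (SE), adjusted p = 0.000591; -0.12 on the spike-in scale). INTS6L, the paralog of INTS6, fell with KB-0742 in MOLT4 (-2.73 ± 0.64 (SE), adjusted p = 0.000384), on 8 counts in all. PPP2CA, the PP2A catalytic subunit, rose with KB-0742 in MOLT4 (1.53 ± 0.14 (SE), adjusted p = 1.07e-12; 0.18 on the spike-in scale) and RH4 (1.04 ± 0.27 (SE), adjusted p = 0.00286; -0.55).

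Of 8 histone transcription and U7 partner genes, KI-CDK9d-32 raised 4 and lowered 4 in MOLT4 at 8 h, 3 and 0 in PSN1, and in RH4 1 and 0. KB-0742 raised 6 and lowered 0 in MOLT4, 4 and 0 in PSN1, and in RH4 4 and 1. In MOLT4 8 of 8 tested were called with KI-CDK9d-32, beside 49.6% of all genes, and 6 (75%) with KB-0742, beside 49.2%. On the spike-in scale none was higher, and 8, 2 and 6 fell with KI-CDK9d-32, as did 3, 1 and 8 with KB-0742, in the same order of lines. ZNF473, the U7-associated zinc-finger protein ZFP100, had no count in the 4 KI-CDK9d-32 libraries of MOLT4 at 8 h, against 106 counts in the vehicle libraries. It was at least 33.2-fold lower when the KI-CDK9d-32 group is set to a floor of 3 counts over the group. HINFP, which activates histone H4 genes, fell in the same comparison (-1.45 ± 0.30 (SE), adjusted p = 5.08e-05). SNRPE, a core protein of U7 and spliceosomal snRNPs, was higher relative to other genes with KB-0742 in all 3 lines (0.82 ± 0.11, 0.50 ± 0.12 and 0.72 ± 0.11, SE) and lower on the spike-in scale (-0.51, -0.40 and -0.88).

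Gene length was set beside the changes as a description. Members spanned 4.11 to 213 kb, from CSTF2T to INTS12, in GENCODE 29, and Spearman's rho across the 38 members between span and log2 change at 8 h was -0.10, -0.26 and -0.42 with KI-CDK9d-32, and -0.031, -0.044 and -0.10 with KB-0742 in MOLT4, PSN1 and RH4. Genes of 1 library share its depth and are not independent replicates. INTS5 and CLP1, with spans of 6.46 and 12.9 kb, fell early in MOLT4 as did INTS6, with 100.2 kb.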

How the data were processed

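RNA was measured by SMART-seq2 in 91 libraries of 3 cell lines. Per the labels' protocols, equal amounts of spike-in RNA went into each lysate and 1 ng of RNA into each library. The authors deposited estimated counts per gene (Salmon and hg38, per the submitters' processing notes, with version and annotation not given in the sources used here). The authors also deposited log2(TPM + 1), used here for vehicle levels and cell markers. The estimated counts are whole numbers as deposited. Left out were 47 PAR_Y rows, and spike-ins entered only their own scale. Columns that matched no sample numbered 0.

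Genes were filtered with filterByExpr (minimum count 10), leaving 11664, 12471 and 12058 genes in MOLT4, PSN1 and RH4 and 13843 in the fit of all lines at 8 h. Each fit used TMM and the quasi-likelihood test of edgeR 4.0.16 (R 4.3.3), with Benjamini-Hochberg adjustment over all genes of a comparison. Library depth limits the precision of low genes such as INTS6, where a few counts decide a value, and the spread between libraries is the error given. CPM are counts scaled to each library's TMM-adjusted size, its total over the genes kept by the filter multiplied by its TMM factor. The bound for ZNF473 was instead scaled to the gene totals of the groups. Symbols and spans came from GENCODE 29, promoters from RefSeq. Alternatives were DESeq2 1.42.0, RLE normalization, no filter, spike-in scaling, a replicate block and leaving out each library. The spike-in scale without 3 libraries was added after the data were seen.

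The members and lists were chosen with earlier results of these data known. Values per library are given for 10 fixed members and for up to 3 called members with the largest changes in each direction at 8 h whose groups do not overlap. Those of the other times, and of members such as CPSF1, SYMPK, CPSF7 and CSTF3, were added after their values were seen. From each of the other lists up to 3 called genes with the largest changes at 8 h per line and compound could be named.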

Additional observations from a re-analysis of the deposited data

Results flagged for a closer look

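Of 142 groups of 4 libraries tested, 8 held a library far from the other 3, and chance gives about 5% of groups. INTS6 had 3 of these in MOLT4, namely 2.44 CPM as the highest KI-CDK9d-32 library at 4 h, 9.83 CPM as the highest KI-CDK9d-32 library at 8 h and 10.4 CPM as the highest vehicle library at 2 h. The lowest KB-0742 library of CPSF4 in MOLT4 at 8 h had 1.05 CPM, and the lowest vehicle library of CSTF3 in PSN1 at 4 h 15.1 CPM. The spike-in share stood apart in 1 KB-0742 library of PSN1 at 8 h (22.4%), in 1 KB-0742 library of MOLT4 at 4 h (49.4%) and in 1 vehicle library of MOLT4 at 8 h (11.7%).

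In 55 cases a member's effect differed between times or lines by edgeR's quasi-likelihood test of the difference (adjusted p under 0.05). The values are log2 differences on the TMM scale. With KI-CDK9d-32 in MOLT4, the effect at 8 h minus that at 4 h was -1.68 for LSM10, -1.29 for CPSF3, -1.19 for CSTF2, -0.95 for FIP1L1, 0.76 for CPSF7, 1.90 for CLP1 and 2.87 for INTS6. With KB-0742 in MOLT4, the same difference was -1.04 for CPSF2, -0.71 for PABPN1, 0.87 for INTS14, 0.98 for SLBP, 1.07 for FIP1L1, 1.17 for CSTF1, 1.27 for NPAT, 1.28 for INTS12, 1.39 for CPSF7, 1.61 for RBBP6 and 2.35 for PCF11. With KB-0742 in PSN1 it was 1.23 for SYMPK. With KB-0742 in RH4 it was -1.34 for CPSF3, -1.08 for INTS10, -0.79 for XRN2, 0.91 for CSTF1, 0.92 for WDR33 and 1.64 for PCF11. Between lines, the 8 h effect of KI-CDK9d-32 in MOLT4 minus that in PSN1 was -1.94 for LSM10, -1.63 for CSTF2, -1.46 for INTS13, -1.14 for CPSF3, -1.07 for CLP1, -1.01 for FIP1L1, 0.97 for INTS1, 0.97 for SYMPK, 0.98 for CPSF7 and 1.13 for CPSF1. The same effect in MOLT4 minus that in RH4 was -2.03 for INTS5, -2.0 for LSM10, -1.91 for INTS13, -1.46 for CSTF2, -1.03 for CLP1, -1.02 for FIP1L1 and 0.96 for SYMPK. The 8 h effect of KB-0742 in MOLT4 minus that in PSN1 was -0.83 for INTS11, -0.81 for CPSF6, 1.24 for CSTF3, 1.25 for WDR33, 1.30 for CSTF1 and 1.79 for INTS12. For KB-0742, MOLT4 minus RH4 was 0.88 for CPSF7 and 1.42 for INTS12. For KB-0742, RH4 minus PSN1 was -0.96 for CPSF7, -0.83 for XRN2, 0.72 for CSTF1, 0.92 for WDR33 and 1.67 for INTS5. Calls lost without at least 1 library were those of CPSF7 and INTS6 for MOLT4 KI-CDK9d-32 at 8 h minus 4 h, of CPSF2, NPAT, PABPN1, RBBP6 and SLBP for MOLT4 KB-0742 at 8 h minus 4 h, of INTS10 and PCF11 for RH4 KB-0742 at 8 h minus 4 h, of CLP1, CPSF3, FIP1L1, INTS1 and INTS13 for KI-CDK9d-32 at 8 h, MOLT4 minus PSN1, of CLP1 for KI-CDK9d-32 at 8 h, MOLT4 minus RH4, of CPSF6, CSTF3 and INTS11 for KB-0742 at 8 h, MOLT4 minus PSN1, of CPSF7 and INTS12 for KB-0742 at 8 h, MOLT4 minus RH4, of CPSF7, CSTF1, INTS5, WDR33 and XRN2 for KB-0742 at 8 h, RH4 minus PSN1.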

How the results depend on the processing

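Of the 34 counts of members called, RLE normalization moved none by more than 1.5 times. DESeq2 moved 3, to 1 in place of 0 for KI-CDK9d-32 against vehicle at 2 h in PSN1, 3 in place of 1 for KB-0742 at 8 h minus 4 h in PSN1 and 5 in place of 2 for KB-0742 at 8 h, MOLT4 minus RH4. Without the filter on low counts, KB-0742 at 8 h, RH4 minus PSN1 gave 3 in place of 5. Spike-in scaling moved 23, and the cause was not tested. It gave 0 higher and 3 lower, or 3 in place of 6, for MOLT4 KI-CDK9d-32 against vehicle 2 h, 2 higher and 1 lower, or 3 in place of 13, for MOLT4 KI-CDK9d-32 against KB-0742 2 h and 2 higher and 6 lower, or 8 in place of 15, for MOLT4 KI-CDK9d-32 against KB-0742 4 h. It also gave 0 higher and 38 lower, or 38 in place of 21, for MOLT4 KI-CDK9d-32 against vehicle 8 h, 0 higher and 21 lower, or 21 in place of 7, for MOLT4 KI-CDK9d-32 at 8 h minus 4 h and 0 higher and 0 lower, or 0 in place of 11, for MOLT4 KB-0742 at 8 h minus 4 h. Further counts were 0 higher and 8 lower, or 8 in place of 3, for PSN1 KI-CDK9d-32 against vehicle 4 h, 0 higher and 24 lower, or 24 in place of 10, for PSN1 KB-0742 against vehicle 4 h and 0 higher and 28 lower, or 28 in place of 7, for PSN1 KI-CDK9d-32 against vehicle 8 h. The next were 0 higher and 24 lower, or 24 in place of 14, for PSN1 KB-0742 against vehicle 8 h, 1 higher and 2 lower, or 3 in place of 12, for PSN1 KI-CDK9d-32 against KB-0742 8 h and 0 higher and 0 lower, or 0 in place of 1, for PSN1 KB-0742 at 8 h minus 4 h. It gave 0 higher and 1 lower, or 1 in place of 2, for RH4 KI-CDK9d-32 against vehicle 4 h, 0 higher and 33 lower, or 33 in place of 16, for RH4 KB-0742 against vehicle 4 h and 19 higher and 0 lower, or 19 in place of 9, for RH4 KI-CDK9d-32 against KB-0742 4 h. It also gave 0 higher and 24 lower, or 24 in place of 6, for RH4 KI-CDK9d-32 against vehicle 8 h, 0 higher and 33 lower, or 33 in place of 18, for RH4 KB-0742 against vehicle 8 h and 0 higher and 1 lower, or 1 in place of 6, for RH4 KB-0742 at 8 h minus 4 h. Further counts were 0 higher and 30 lower, or 30 in place of 10, for KI-CDK9d-32 at 8 h, MOLT4 minus PSN1, 0 higher and 36 lower, or 36 in place of 7, for KI-CDK9d-32 at 8 h, MOLT4 minus RH4 and 0 higher and 0 lower, or 0 in place of 6, for KB-0742 at 8 h, MOLT4 minus PSN1. The next were 0 higher and 0 lower, or 0 in place of 2, for KB-0742 at 8 h, MOLT4 minus RH4 and 0 higher and 2 lower, or 2 in place of 5, for KB-0742 at 8 h, RH4 minus PSN1. In an alternative chosen after the data were seen, the spike-in scale left out each of 3 libraries whose spike-in share stood apart. Without MOLT4 KB-0742 4 h replicate 3 it called 7 for MOLT4 KI-CDK9d-32 against KB-0742 4 h and 0 for MOLT4 KB-0742 at 8 h minus 4 h. Without MOLT4 vehicle 8 h replicate 4 it called 38 for MOLT4 KI-CDK9d-32 against vehicle 8 h, 16 for MOLT4 KI-CDK9d-32 at 8 h minus 4 h, 0 for MOLT4 KB-0742 at 8 h minus 4 h, 29 for KI-CDK9d-32 at 8 h, MOLT4 minus PSN1, 33 for KI-CDK9d-32 at 8 h, MOLT4 minus RH4, 0 for KB-0742 at 8 h, MOLT4 minus PSN1 and 0 for KB-0742 at 8 h, MOLT4 minus RH4. Without PSN1 KB-0742 8 h replicate 4 it called 3 for PSN1 KI-CDK9d-32 against KB-0742 8 h, 0 for PSN1 KB-0742 at 8 h minus 4 h, 2 for KB-0742 at 8 h, MOLT4 minus PSN1 and 8 for KB-0742 at 8 h, RH4 minus PSN1. Same-numbered libraries of 2 groups deviated together by a correlation over 0.1 in 0 of 136 pairs in MOLT4, 24 of 112 in PSN1, 10 of 60 in RH4 and 4 of 36 across lines. Not every pair passed and the labels name no shared batch, so the main fit did not take the numbers as pairs. Failing that rule does not show that same-numbered libraries are unrelated. In PSN1 the median correlation was 0.065 for same-numbered pairs and -0.030 for other numbers. The libraries closest to their own number were 29 of 35, 30 of 32, 22 of 24 and 29 of 36. The numbers thus went with a shared part of the spread, which the main fit leaves out and the replicate block takes in. With the replicate block, PSN1 gave 1 in place of 0 member for KI-CDK9d-32 against vehicle at 2 h and 6 in place of 3 at 4 h. The other 32 counts stayed within 1.5 times of the fit without it. Of 327 member calls, 206 held without each library in turn, 121 were lost without at least 1 and 0 changed sign. The counts that moved by over 1.5 times ranged as follows. They were 0 to 4 for KB-0742 at 8 h, MOLT4 minus RH4 (with all libraries 2), 2 to 5 for KB-0742 at 8 h, RH4 minus PSN1 (with all libraries 5) and 6 to 10 for KI-CDK9d-32 at 8 h, MOLT4 minus PSN1 (with all libraries 10). They were also 9 to 13 for MOLT4 KB-0742 against vehicle 2 h (with all libraries 14), 8 to 13 for MOLT4 KI-CDK9d-32 against KB-0742 2 h (with all libraries 13) and 1 to 2 for PSN1 KB-0742 at 8 h minus 4 h (with all libraries 1). The others were 7 to 11 for PSN1 KI-CDK9d-32 against KB-0742 8 h (with all libraries 12), 0 to 1 for PSN1 KI-CDK9d-32 against vehicle 2 h (with all libraries 0) and 1 to 3 for PSN1 KI-CDK9d-32 against vehicle 4 h (with all libraries 3). They were 1 to 2 for RH4 KI-CDK9d-32 against vehicle 4 h (with all libraries 2). For KB-0742 at 8 h, MOLT4 minus RH4, any 1 of 8 libraries did so, and RH4 KB-0742 replicate 3 left 0. For KB-0742 at 8 h, RH4 minus PSN1, any 1 of 11 did so. For KB-0742 at 8 h minus 4 h in PSN1 the libraries were KB-0742 replicate 4 at 4 h and replicates 3 and 4 at 8 h, and for KI-CDK9d-32 against KB-0742 at 2 h in MOLT4 KI-CDK9d-32 replicate 1. On the spike-in scale the log2 change of 61 member calls changed sign. These were CPSF3 (-0.38), NUDT21 (-0.36), PABPN1 (-0.33) and WDR33 (-0.052) for MOLT4 KB-0742 against vehicle 2 h and CPSF1 (-0.50), CPSF2 (-0.46), CPSF6 (-0.59) and INTS11 (-0.46) for MOLT4 KI-CDK9d-32 against vehicle 4 h. So did CLP1 (-0.10), CSTF1 (-0.82), CSTF2T (-0.32), NUDT21 (-0.72) and WDR33 (-0.072) for MOLT4 KB-0742 against vehicle 4 h and CPSF1 (-1.99), CPSF6 (-2.28), CPSF7 (-2.27), INTS1 (-1.97), INTS11 (-2.29), NPAT (-2.06) and SYMPK (-2.09) for MOLT4 KI-CDK9d-32 against vehicle 8 h. Sign also changed for CASP8AP2 (-0.43), CLP1 (-0.042), CPSF7 (-0.69), CSTF2T (-0.44), FIP1L1 (-0.85), PCF11 (-0.17) and SYMPK (-0.77) for MOLT4 KB-0742 against vehicle 8 h and CPSF1 (-0.40), CPSF2 (-0.70), INTS11 (-0.74), INTS3 (-0.81), INTS8 (-0.18), PABPN1 (-0.74) and XRN2 (-0.93) for MOLT4 KI-CDK9d-32 against KB-0742 8 h. The same held for CPSF7 (-1.03) for MOLT4 KI-CDK9d-32 at 8 h minus 4 h and PABPN1 (-0.057) for PSN1 KI-CDK9d-32 against vehicle 4 h. These were NUDT21 (-0.37) for PSN1 KB-0742 against vehicle 4 h and CPSF6 (-0.28), INTS11 (-0.14) and PABPN1 (-0.18) for PSN1 KI-CDK9d-32 against vehicle 8 h. So did CLP1 (-0.081), CPSF7 (-0.22), INTS11 (-0.28) and WDR33 (-0.48) for PSN1 KB-0742 against vehicle 8 h and CLP1 (-0.26), NPAT (-0.26) and NUDT21 (-0.62) for RH4 KB-0742 against vehicle 4 h. Sign also changed for WDR33 (0.19) for RH4 KI-CDK9d-32 against KB-0742 4 h and CPSF6 (-0.27) and CSTF3 (-0.0068) for RH4 KI-CDK9d-32 against vehicle 8 h. The same held for CLP1 (-0.11), CSTF1 (-0.61), CSTF2T (-0.50) and WDR33 (-0.29) for RH4 KB-0742 against vehicle 8 h and FIP1L1 (0.22) and INTS4 (0.014) for RH4 KI-CDK9d-32 against KB-0742 8 h. These were CPSF1 (-0.91), CPSF7 (-1.0), INTS1 (-0.94) and SYMPK (-0.99) for KI-CDK9d-32 at 8 h, MOLT4 minus PSN1 and SYMPK (-1.09) for KI-CDK9d-32 at 8 h, MOLT4 minus RH4. Depth limited members with few counts, so INTS6, INTS8, INTS13, PCF11 and LSM11 have wide errors.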
